A study of Homo sapiens with 3 samples.

Results

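The 10 genes described here encode enzymes of xenobiotic detoxification: the quinone reductase NQO1, the microsomal epoxide hydrolase EPHX1, and the glutathione transferases GSTP1, GSTO1, GSTM3, GSTM4, GSTK1, MGST1, MGST2 and MGST3. They were taken by name from a deposited table of 50868 genes, and each of the 10 names belonged to 1 identifier. RNA was sequenced from cells labelled AGS, an established human gastric adenocarcinoma line, after 48 h with 12 µM SFA, with 18 µM SFE, or with DMSO, the solvent given as the negative control. The compounds behind the names SFA and SFE are not identified here. Each condition has 1 library, so the spread between cultures is unknown and no test was possible. Several epithelial markers, EPCAM and CDH1 among them, were below 1 FPKM (a count divided by gene length and by sequencing depth) in all 3 libraries, as described at the end. Intervals below are 95% intervals of counting error alone.

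Detoxification enzymes make reactive or fat-soluble compounds less harmful and easier to export. Quinone reductase and epoxide hydrolase act on the reactive group itself, and glutathione transferases join the compound to the thiol of glutathione. Many of these genes are known targets of NRF2, a transcription factor that KEAP1 holds back until oxidants or electrophiles modify KEAP1. NRF2 then binds, with a small MAF protein, to antioxidant response elements whose core is TGACNNNGC. NQO1 is among the best known of these targets.

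In both treated libraries NQO1 and EPHX1 stood furthest above DMSO, and GSTO1, GSTM3, GSTM4 and MGST1 stood above it by smaller ratios. GSTP1 had ratios to DMSO of 1.14 with SFA and 1.08 with SFE, and MGST2 of 1.18 and 1.31. GSTK1 and MGST3 had ratios of 0.93 to 1.003. For each of these 4 genes, whether an interval included 1 depended in 1 comparison with DMSO on how the libraries were scaled. At a limit of 2-fold, on the scale log2(FPKM + 1), 1 of the 10 genes was higher in the SFA library than in the DMSO library, namely EPHX1, and none was lower. Of all 11680 genes that reached 1 FPKM in at least 1 library, 1.36% were that much higher and 1.34% that much lower. At 1.5-fold, 3 genes were higher with SFA (EPHX1, NQO1 and GSTO1), against 5.36% of all genes, and none was lower, against 4.67%. Differences of any size were positive in 9 genes and negative in 1, where 51.4% and 48.6% of all genes were. In the SFE library none of the 10 was 2-fold higher or lower than with DMSO, where 1.37% and 1.01% of all genes were. NQO1 and EPHX1 were at least 1.5-fold higher with SFE, against 5.34% of all genes, and none was that much lower, against 3.48%. This scale gives smaller folds than count ratios for low genes, and by count ratio GSTM3 with SFA and GSTM4 with SFE also exceeded 1.5-fold. The share of all genes past 1.5-fold by count ratio was not computed. With SFE, differences of any size were positive in 8 genes and negative in 2, where 55.2% and 44.8% of all genes were. The median difference of the 10 genes in log2(FPKM + 1) was 0.35 for SFA minus DMSO and 0.38 for SFE minus DMSO, beside 0.01 and 0.03 for all genes. Both comparisons use the same DMSO library, so they are not independent of each other.

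The bearing of the TGACNNNGC motif on transcript levels was not tested. The upstream sequences of 4 genes are shown, NQO1 and the 3 with a match. They are RefSeq windows of 250 bases before an annotated start, on GRCh38.p14, printed 5′ to 3′ on the gene's strand, with each match to TGACNNNGC in capitals.
NQO1, chr16:69726561-69726810, minus strand: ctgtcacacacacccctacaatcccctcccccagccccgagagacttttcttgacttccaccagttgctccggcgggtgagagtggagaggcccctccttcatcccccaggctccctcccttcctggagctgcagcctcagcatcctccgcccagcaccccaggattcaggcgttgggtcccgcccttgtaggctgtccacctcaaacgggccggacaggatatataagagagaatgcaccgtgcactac
EPHX1, chr1:225825104-225825353, plus strand: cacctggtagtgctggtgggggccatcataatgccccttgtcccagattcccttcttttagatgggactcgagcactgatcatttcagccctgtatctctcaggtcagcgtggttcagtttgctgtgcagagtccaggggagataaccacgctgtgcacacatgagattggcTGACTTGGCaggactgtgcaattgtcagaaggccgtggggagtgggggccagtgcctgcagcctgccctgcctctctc
GSTO1, chr10:104254642-104254891, plus strand: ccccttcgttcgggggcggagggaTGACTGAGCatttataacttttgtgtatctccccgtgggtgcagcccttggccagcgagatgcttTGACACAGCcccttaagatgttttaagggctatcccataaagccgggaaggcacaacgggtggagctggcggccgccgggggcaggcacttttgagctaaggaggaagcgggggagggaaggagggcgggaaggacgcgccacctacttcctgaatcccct
GSTP1, chr11:67583562-67583811, plus strand: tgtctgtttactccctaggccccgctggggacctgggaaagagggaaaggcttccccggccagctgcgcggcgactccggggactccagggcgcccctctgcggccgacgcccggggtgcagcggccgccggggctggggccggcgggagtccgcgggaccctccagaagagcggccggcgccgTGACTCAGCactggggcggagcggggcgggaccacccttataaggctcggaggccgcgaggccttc

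Windows were found for 9 of the 10 genes, 13 windows in all because EPHX1 and MGST1 have several annotated starts. On either strand the motif occurred in 3 genes, in 1 window each, so in 3 of the 13 windows. GSTO1 had TGACTGAGC starting 226 bases and TGACACAGC starting 161 bases before its start. GSTP1 had TGACTCAGC starting 66 bases before its start, and these letters also hold TGACTCA, the motif of AP-1, a dimer of FOS and JUN proteins. EPHX1 had TGACTTGGC starting 78 bases before 1 of its starts and none before the others. Only that EPHX1 window is printed, and it lies inside the EPHX1 locus given below. The windows of NQO1, GSTO1, GSTK1 and MGST3 also lie inside their loci, so the bases before those loci were not searched. Some windows of MGST1, but not all, lie inside its locus. Those of GSTP1 and GSTM4 overlap their loci. Of 35116 RefSeq windows of the same length, 10.9% held TGACNNNGC on either strand, 0.752% held it at least 2 times and 4.2% held TGACTCA. The windows of NQO1, GSTM3, GSTM4, GSTK1, MGST1 and MGST3 did not hold TGACNNNGC, which says only that these letters are not in them.

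**Figure D1:**
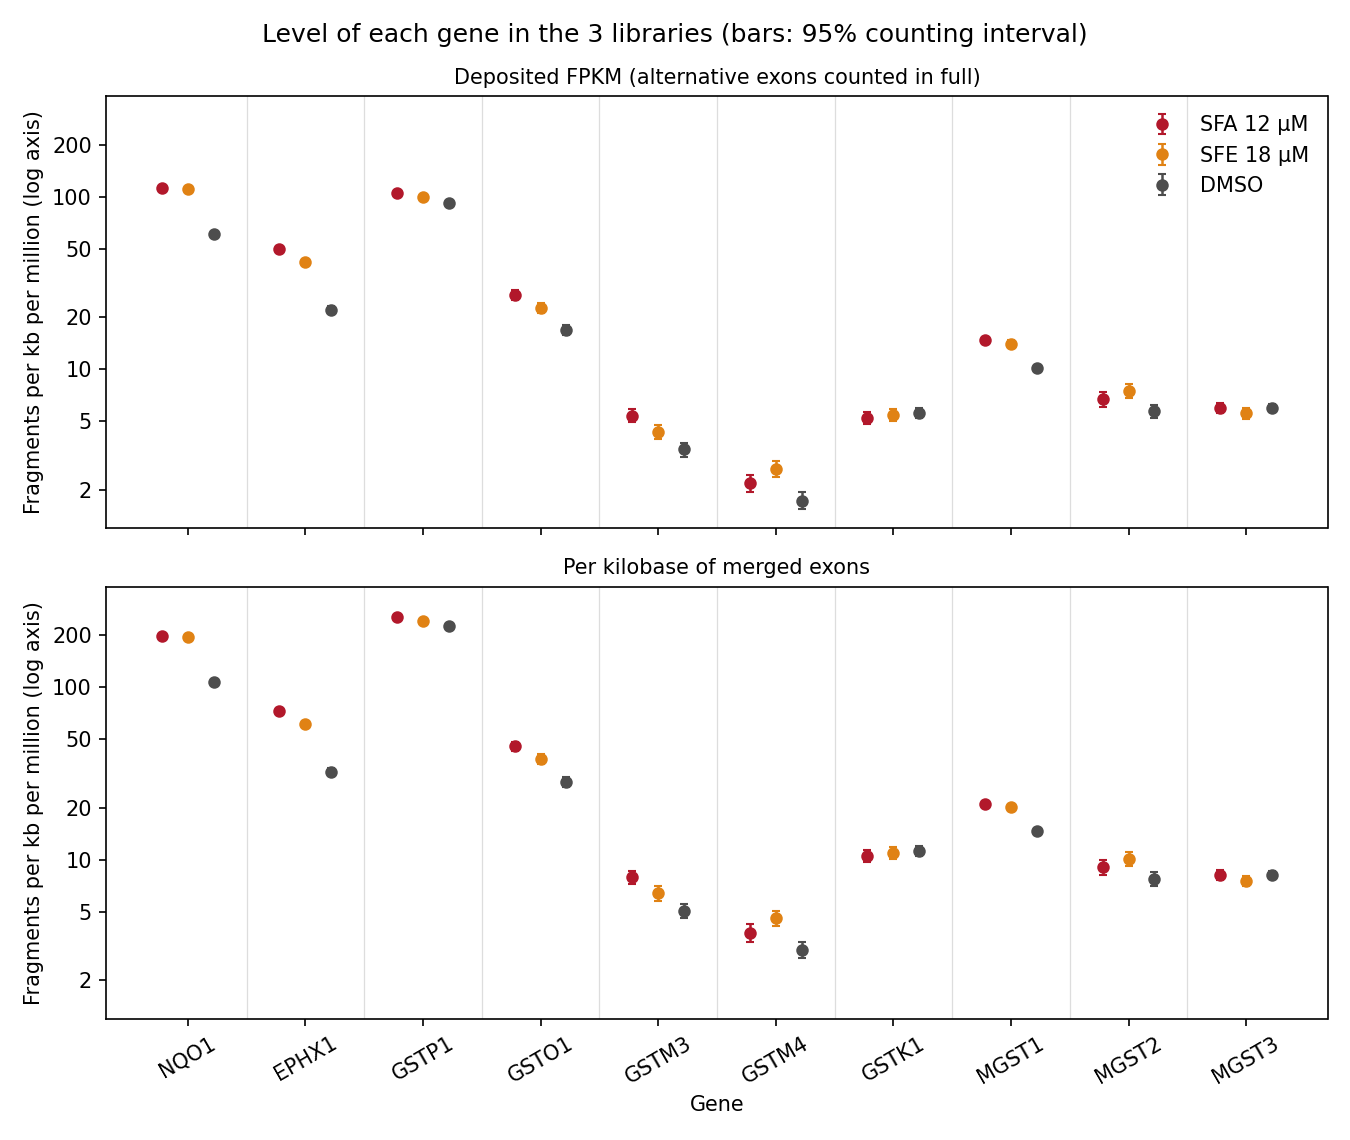
Level of each gene in the SFA, SFE and DMSO libraries as FPKM on a log axis, with 95% counting intervals. The upper panel uses the deposited gene lengths and the lower panel the merged exon length; with deposited lengths NQO1 lies above GSTP1 in both treated libraries (112 against 105 FPKM with SFA), and with merged lengths GSTP1 lies above NQO1 in all 3.

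NQO1 reduces quinones to hydroquinones with NADH or NADPH, which keeps them from cycling with oxygen. NQO1 (ENSG00000181019, chromosome 16, 69706996 to 69726951, minus strand) had 8742 counts in the SFA library, 8605 in the SFE library and 6507 in the DMSO library. Its level was 112 FPKM with SFA, 110.4 with SFE and 60.7 with DMSO. Both treated libraries were high and close to each other, and neither interval met that of DMSO (110 to 115 with SFA, 108 to 113 with SFE, 59.3 to 62.2 with DMSO). The count ratio was 1.85 for SFA over DMSO (1.79 to 1.91) and 1.82 for SFE over DMSO (1.76 to 1.88). Under TMM scaling these were 1.77 (1.72 to 1.83) and 1.70 (1.65 to 1.76). Its difference in log2(FPKM + 1) exceeded that of 97.9% of all genes in each of these comparisons. An antisense gene inside the NQO1 locus, CTD-2033A16.1, had 275 counts with SFA, 255 with SFE and 211 with DMSO, at most 3.24% of the NQO1 count in any library.

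EPHX1 opens epoxides with water to give diols, in the membrane of the endoplasmic reticulum. EPHX1 (ENSG00000143819, chromosome 1, 225810092 to 225845563, plus strand) had 2477 counts with SFA, 2087 with SFE and 1520 with DMSO. That made 49.7 FPKM with SFA, 41.9 with SFE and 22.2 with DMSO. The 3 libraries were ordered SFA, SFE, DMSO with no meeting of intervals, and the SFA library was higher than DMSO by 2.24-fold (2.10 to 2.39). The SFE library was higher than DMSO by 1.89-fold (1.77 to 2.02). Under TMM scaling the ratios were 2.15 with SFA (2.02 to 2.29) and 1.77 with SFE (1.65 to 1.89). Among the 11680 genes EPHX1 ranked 118th by its difference for SFA minus DMSO and 213th for SFE minus DMSO. TMEM63A on the opposite strand shares 28 bases with EPHX1 and had 471 counts with SFA, 526 with SFE and 684 with DMSO. Its own difference in log2(FPKM + 1) was −0.06 for SFA minus DMSO and 0.06 for SFE minus DMSO.

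GSTP1, the pi-class transferase, is abundant in many epithelial tumours and conjugates small electrophiles in the cytosol. GSTP1 (ENSG00000084207, chromosome 11, 67583595 to 67586660, plus strand) had 6665 counts with SFA, 6329 with SFE and 8056 with DMSO in a deeper library. It stood at 105 FPKM with SFA, 99.5 with SFE and 92.1 with DMSO. The 3 values lay close together, and the ratios were 1.14 for SFA over DMSO (1.10 to 1.18) and 1.08 for SFE over DMSO (1.05 to 1.12). Its difference exceeded that of 74.1% of all genes for SFA and 62.6% for SFE. The SFE ratio was 1.02 under median-ratio scaling (0.99 to 1.06) and 1.01 under TMM scaling (0.98 to 1.04), so these intervals included 1.

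GSTO1, an omega-class enzyme, transfers thiols and reduces dehydroascorbate. GSTO1 (ENSG00000148834, chromosome 10, 104235356 to 104267459, plus strand) had 1044 counts with SFA, 881 with SFE and 896 with DMSO, or 26.9, 22.7 and 16.8 FPKM. SFA was highest and DMSO lowest, with no meeting of intervals. The ratio was 1.603 for SFA over DMSO (1.46 to 1.75) and 1.35 for SFE over DMSO (1.23 to 1.49). GSTO1, GSTP1 and MGST3 are the 3 of the 10 genes that overlap no other listed gene.

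The mu-class genes GSTM3 and GSTM4, cytosolic transferases that lie in a cluster on chromosome 1, stood lower. GSTM3 (ENSG00000134202, 109733932 to 109741038, minus strand) had 512 counts with SFA, 413 with SFE and 449 with DMSO, or 5.38, 4.34 and 3.43 FPKM. The SFA library was higher than DMSO by 1.57-fold (1.38 to 1.78) and the SFE library by 1.27-fold (1.10 to 1.45). GSTM4 (ENSG00000168765, 109656081 to 109674836, plus strand) had 295 counts with SFA, 358 with SFE and 323 with DMSO, or 2.18, 2.64 and 1.73 FPKM. Unlike GSTM3 it was higher with SFE than with SFA, and its ratios were 1.26 for SFA over DMSO (1.07 to 1.48) and 1.52 for SFE over DMSO (1.31 to 1.78). On the log2(FPKM + 1) scale, which understates the change of low genes, GSTM4 stayed below 1.5-fold. GSTM1, GSTM2 and GSTM5 in the same cluster had 0 to 3 counts in each library. Of all 50-base stretches of the longest coding GSTM4 transcript in GENCODE 29, 11.7% also occurred in transcripts of other genes, mainly GSTM5, GSTM1 and GSTM2, so some GSTM4 reads cannot be assigned with certainty. That share was at most 3.09% for the other 9 genes.

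With scaling to total counts GSTK1, the kappa-class transferase of mitochondria and peroxisomes, was the gene below DMSO in both treated libraries. Under median-ratio and TMM scaling MGST3 was below DMSO in both as well. GSTK1 (ENSG00000197448, chromosome 7, 143244093 to 143270854, plus strand) had 605 counts with SFA, 633 with SFE and 893 with DMSO, or 5.22, 5.46 and 5.60 FPKM. All 3 intervals of the level met, and the ratios were 0.93 for SFA over DMSO (0.84 to 1.03) and 0.97 for SFE over DMSO (0.88 to 1.08). Under TMM scaling the SFA ratio was 0.89 (0.80 to 0.99), which left out 1. A difference of the size seen for NQO1 lies outside both intervals.

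The membrane-bound transferases differed among themselves. MGST1 sits in the endoplasmic reticulum and the outer mitochondrial membrane, where it also reduces lipid hydroperoxides. MGST1 (ENSG00000008394, chromosome 12, 16347142 to 16609259, plus strand) had 2132 counts with SFA, 2039 with SFE and 2034 with DMSO, or 14.7, 14.1 and 10.2 FPKM. Both treated libraries were above DMSO with no meeting of intervals, by 1.44-fold with SFA (1.36 to 1.53) and 1.38-fold with SFE (1.30 to 1.47). LMO3, on the opposite strand and overlapping the MGST1 locus, had 164 counts with SFA, 167 with SFE and 408 with DMSO, or 7.69%, 8.19% and 20.1% of the MGST1 count.

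MGST2 can also join leukotriene A4 to glutathione to give leukotriene C4. MGST2 (ENSG00000085871, chromosome 4, 139665768 to 139740745, plus strand) had 393 counts with SFA, 439 with SFE and 460 with DMSO, or 6.69, 7.47 and 5.69 FPKM. Its ratios were 1.18 for SFA over DMSO (1.02 to 1.35) and 1.31 for SFE over DMSO (1.15 to 1.499). The level intervals of SFA and DMSO met, and under TMM scaling the SFA ratio was 1.13 (0.98 to 1.29). MAML3 overlaps it on the opposite strand, with 170 counts with SFA, 165 with SFE and 306 with DMSO, or 43.3%, 37.6% and 66.5% of the MGST2 count. MGST3 is a relative with transferase and peroxidase activity. MGST3 (ENSG00000143198, chromosome 1, 165630861 to 165661796, plus strand) had 933 counts with SFA, 866 with SFE and 1280 with DMSO, or 5.97, 5.54 and 5.96 FPKM. The ratios were 1.003 for SFA over DMSO (0.92 to 1.09), which fell below 1 under median-ratio and TMM scaling, and 0.93 for SFE over DMSO (0.85 to 1.02). The SFE ratio was 0.88 under median-ratio scaling (0.81 to 0.96) and 0.87 under TMM scaling (0.80 to 0.95), which left out 1.

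Whether counting kept the strands apart is not known, so reads of a gene and its antisense partner may be mixed. Values of the 7 genes that overlap another listed gene are uncertain to that extent, and the part of TMEM63A, LMO3 and MAML3 in the counts of their partners was not tested.

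**Figure D2:**
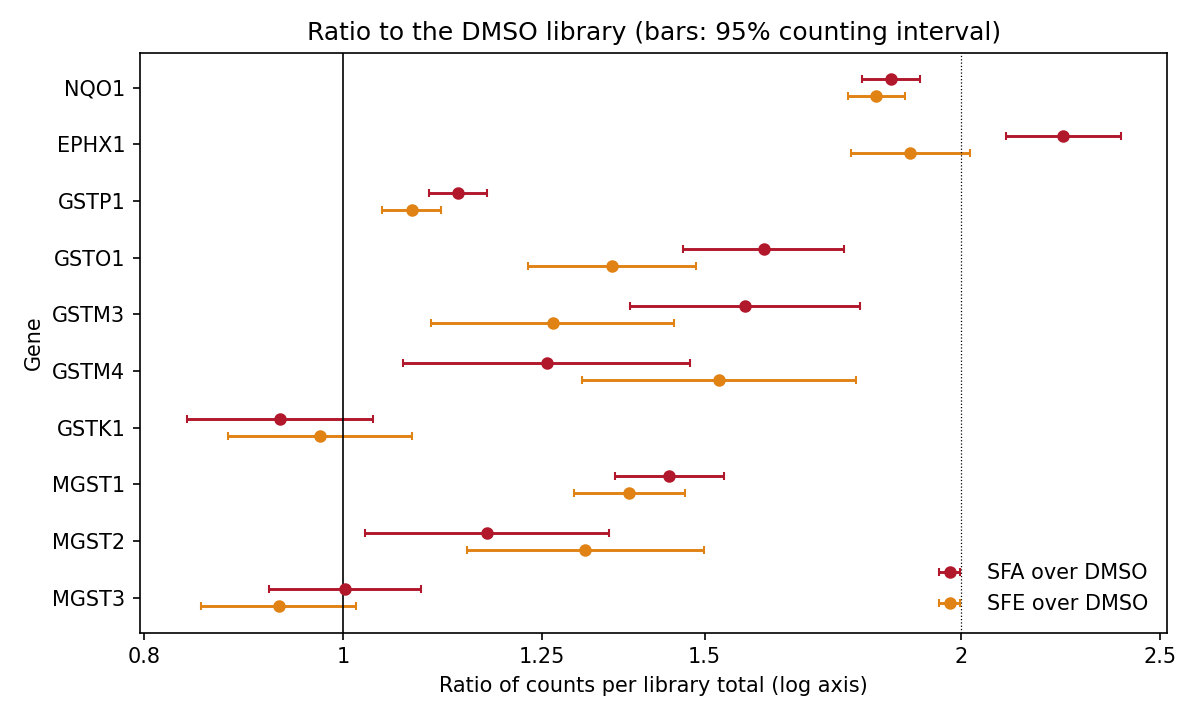
Ratio of each gene's count share in the SFA or SFE library to that in the DMSO library, on a log axis, with 95% counting intervals; the solid line marks 1 and the dotted line 2. EPHX1 with SFA is the 1 point whose whole interval lies above 2 (2.10 to 2.39), and with this scaling to total counts the intervals of GSTK1 and MGST3 include 1.

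The order of the 10 transcripts by level depended on the gene length used. For 88.8% of 21872 genes, the length behind the deposited FPKM equalled the summed length of all distinct exons of the gene in GENCODE 29, within 0.1%. Alternative exons that overlap are then each counted in full, which lowers FPKM most for genes with many isoforms. GSTP1 was an exception, with a deposited length of 4660 bases against 5089 summed in GENCODE 29. GSTM4 was another, with 9930 against 10238 bases, so its level per merged kilobase is uncertain too. The deposited length of GSTP1 was longer than its deposited locus of 3066 bases and 2.44 times its merged exon length of 1911 bases in GENCODE 29. The deposited position of GSTP1 also differs from that release. Its level per merged kilobase, and its place beside NQO1, are uncertain to that extent. For NQO1 the deposited length was 5710 bases, or 1.75 times the merged length. By deposited FPKM, GSTP1 was the highest of the 10 in the DMSO library, and NQO1 was the highest in the SFA and SFE libraries. Per kilobase of merged exons GSTP1 was the highest in all 3, at 256 with SFA, 243 with SFE and 225 with DMSO, against 197, 194 and 107 for NQO1. Ratios between libraries do not change with the length.

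By either length the next genes were EPHX1, GSTO1 and MGST1 in that order, and GSTM4 was the lowest in every library. Per kilobase of merged exons GSTK1 then came sixth in all 3 libraries. With SFA its interval met that of MGST2, whose interval met that of MGST3, whose interval met that of GSTM3. With SFE only GSTK1 and MGST2 could not be told apart by counting error, and with DMSO only MGST3 and MGST2. Summed over the 8 glutathione transferases, the level per merged kilobase was 361 with SFA, 341 with SFE and 303 with DMSO. GSTP1 made up 70.8% of that sum with SFA, 71.3% with SFE and 74.2% with DMSO.

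SFE and SFA were given at different doses, 18 and 12 µM, so compound and dose cannot be told apart, and the 2 libraries are compared as libraries. No gene of the 10 was 2-fold or 1.5-fold higher or lower with SFE than with SFA. Among all genes 0.676% were 2-fold higher and 0.616% lower, and 2.88% were 1.5-fold higher and 2.17% lower. Differences of any size were positive in 3 genes and negative in 7, where 55.6% and 44.3% of all genes were. GSTM3 was lower with SFE, with a ratio of 0.81 for SFE over SFA (0.71 to 0.92), as were EPHX1 at 0.84 (0.79 to 0.89), GSTO1 at 0.84 (0.77 to 0.92) and GSTP1 at 0.95 (0.92 to 0.98). GSTM4 was higher with SFE, at 1.21 (1.04 to 1.42). For NQO1 the ratio was 0.98, with an interval of 0.96 to 1.01. The other 4 intervals also included 1, and the widest of them, that of MGST2, ran from 0.97 to 1.28. This held for scaling to total counts. Under median-ratio scaling the intervals of NQO1 (ratio 0.95, 0.93 to 0.98), MGST1 (0.93, 0.87 to 0.98) and MGST3 (0.90, 0.82 to 0.99) lay below 1, and they did so under TMM scaling too. The median difference in log2(FPKM + 1), SFE minus SFA, was −0.07 for the 10 genes and 0.02 for all genes.

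**Figure D3:**
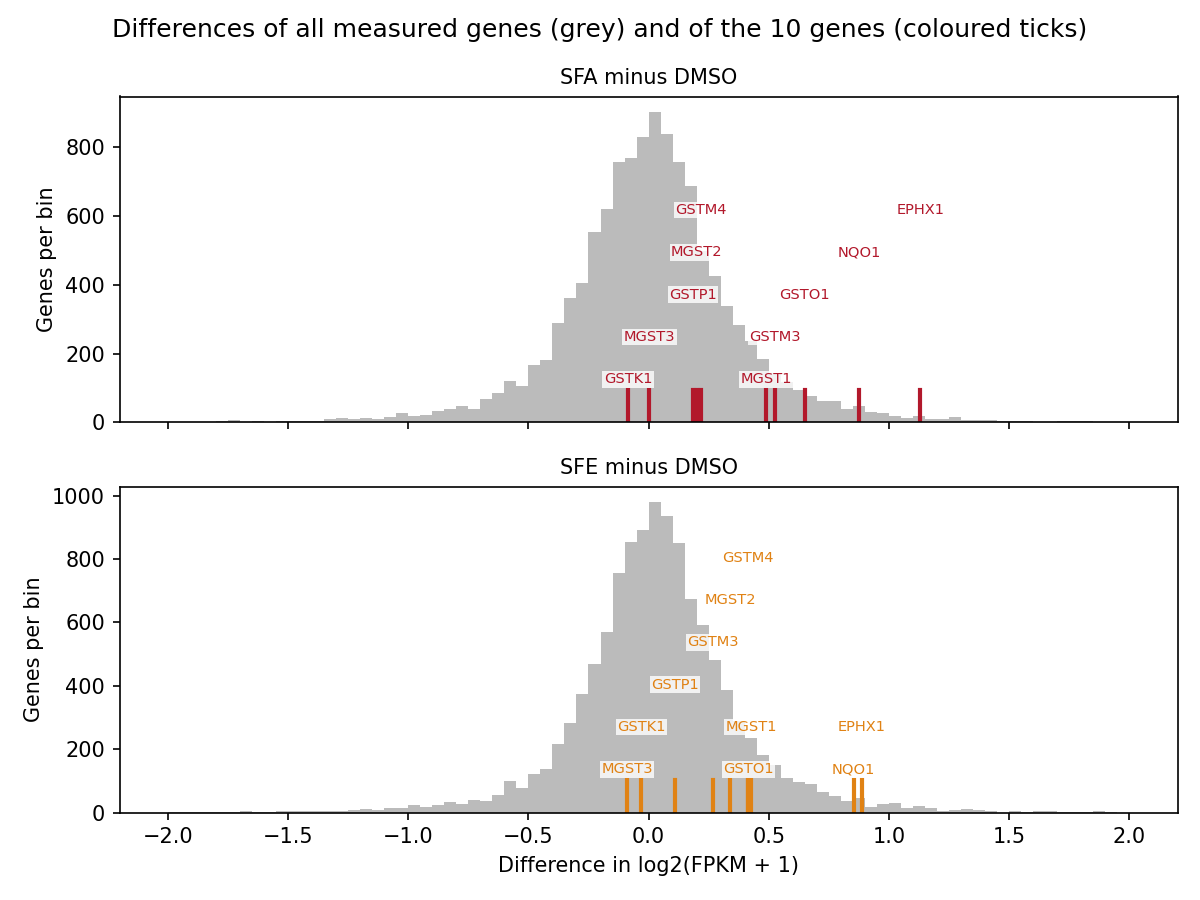
Histogram of the difference in log2(FPKM + 1) from DMSO for all measured genes (grey), with the 10 genes as coloured ticks, for SFA above and SFE below. EPHX1 and NQO1 lie in the right tail of both (1.13 and 0.88 with SFA, 0.89 and 0.85 with SFE), and GSTK1 and MGST3 near 0; 45 genes with SFA and 36 with SFE lie beyond 2 on either side and are not drawn.

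Of 72 further genes of conjugation and reduction in 5 lists, 28 reached 1 FPKM in at least 1 library. Their median difference in log2(FPKM + 1) was 0.12 for SFA minus DMSO and 0.05 for SFE minus DMSO. On that scale none was 2-fold higher in either comparison, where 1.36% of all genes were with SFA and 1.37% with SFE. In both comparisons 1 was 2-fold lower, where 1.34% and 1.01% of all genes were. At 1.5-fold 6 were higher with SFA and none with SFE, where 5.36% and 5.34% of all genes were. In each comparison 1 was that much lower, against 4.67% and 3.48%. By count ratio, CBR3 and SULT1A2 were 2-fold higher with SFA and SULT1A2 with SFE. GSTA4 and INMT were 2-fold lower with SFA and INMT with SFE. At 1.5-fold by count ratio 6 were higher with SFA and 3 with SFE (CBR3, SULT1A2 and UGDH). GSTA4 and INMT were that much lower with both. The share of all genes by count ratio was not computed. SULT1A2 entered only through the SFA library (1.04 FPKM, against 0.17 with DMSO), so the filter favoured its place among the higher genes. GSTA4 entered only through the DMSO library, so the filter favoured its place among the lower genes.

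Among 18 other glutathione transferases and related membrane enzymes, of which 17 were analysed here, 6 reached 1 FPKM, with medians of −0.02 for SFA minus DMSO and −0.04 for SFE minus DMSO. PTGES, which makes prostaglandin E2 from prostaglandin H2, stood at 24.5 FPKM with SFA, 23.7 with SFE and 25.9 with DMSO. GSTA4, which conjugates the lipid aldehyde 4-hydroxynonenal, had 28 counts with SFA, 35 with SFE and 78 with DMSO, with ratios of 0.49 for SFA over DMSO (0.31 to 0.77) and 0.62 for SFE over DMSO (0.40 to 0.93). It reached 1 FPKM only with DMSO (1.19), so the filter favoured ratios below 1. GSTT2 had 72, 56 and 69 counts, and its near-identical copy GSTT2B makes these values uncertain. The alpha-class genes GSTA1, GSTA2, GSTA3 and GSTA5 were listed at 0 counts in all 3 libraries.

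Relatives of NQO1 and EPHX1 were measured for 9 of 12 genes, with medians of 0.11 for SFA minus DMSO and 0.07 for SFE minus DMSO. On the log2(FPKM + 1) scale 3 were 1.5-fold higher with SFA and none with SFE, where 5.36% and 5.34% of all genes were. None was that much lower in either comparison, against 4.67% and 3.48%. By count ratio these were also 3 with SFA, and CBR3 with SFE, and the share of all genes was not computed. The carbonyl reductase CBR3 stood at 9.41 FPKM with SFA, 7.27 with SFE and 4.69 with DMSO, and was higher than DMSO by 2.004-fold with SFA (1.55 to 2.60) and 1.55-fold with SFE (1.18 to 2.04). Its paralog CBR1 was higher by 1.58-fold with SFA (1.47 to 1.70) and 1.42-fold with SFE (1.32 to 1.52). NQO2, the quinone reductase that uses dihydronicotinamide riboside, stood at 14.3 FPKM with SFA, 11.9 with SFE and 8.36 with DMSO, ratios of 1.72 (1.62 to 1.82) and 1.42 (1.34 to 1.52) to DMSO. CBR1, CBR3 and NQO2 each overlap another listed gene, and their values are uncertain to that extent.

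In glucuronidation 2 of 21 genes were measured, and no UGT enzyme was among them. The UGT1A genes overlap other listed genes, so reads may have been left out or split among them. UGDH, which makes the UDP-glucuronic acid that these enzymes use, stood at 4.90 FPKM with SFA, 4.57 with SFE and 2.75 with DMSO. UGP2, the enzyme one step earlier, stood at 1.90 FPKM with SFA, 2.10 with SFE and 2.35 with DMSO. In sulfation 7 of 13 genes were measured, with medians of 0.35 for SFA minus DMSO and 0.33 for SFE minus DMSO. PAPSS2, which makes the sulfate donor, was higher than DMSO by 1.42-fold with SFA (1.30 to 1.55) and 1.30-fold with SFE (1.19 to 1.42). SULT1A2 had 63 counts with SFA, 42 with SFE and 14 with DMSO, ratios of 6.19 (3.43 to 12.0) with SFA and 4.13 (2.21 to 8.18) with SFE to DMSO. It reached 1 FPKM only with SFA, so the filter favoured a high SFA ratio. SULT1A4 had 740 counts with SFA, 609 with SFE and 652 with DMSO. Both belong to a family of near-identical copies, so their values are uncertain.

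In methylation and acetylation 4 of 8 genes were measured, with medians of 0.11 for SFA minus DMSO and −0.09 for SFE minus DMSO. INMT, an indolethylamine N-methyltransferase, was the gene 2-fold lower in both comparisons, with 109 counts with SFA, 147 with SFE and 545 with DMSO. It overlaps another listed gene, and its values are uncertain to that extent. TPMT, which methylates thiopurines, stood at 6.55 FPKM with SFA, 5.53 with SFE and 5.76 with DMSO.

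**Figure D4:**
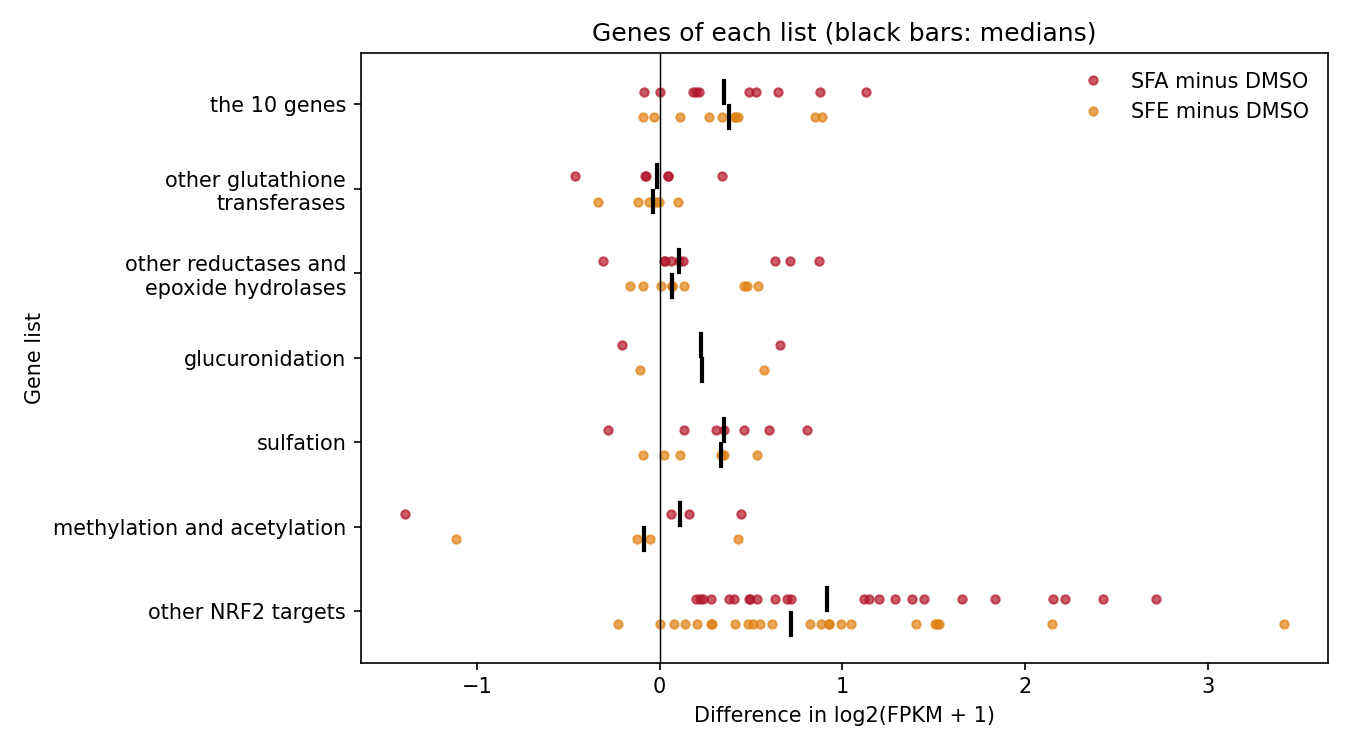
Difference in log2(FPKM + 1) from DMSO for each measured gene of the 10 and of 6 other lists, SFA above SFE in each list, with medians as black bars. The median of the 10 genes (0.35 with SFA, 0.38 with SFE) lies between that of other glutathione transferases (−0.02 and −0.04) and that of other NRF2 targets (0.92 and 0.72). The median of the sulfation list (0.35 and 0.33) lies close to that of the 10 genes.

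Among 25 NRF2 targets outside the 10 genes, 24 were measured, and 15 of these overlap another listed gene. The list was chosen with earlier results of these data known. Their medians were 0.92 for SFA minus DMSO and 0.72 for SFE minus DMSO. On that log2(FPKM + 1) scale 12 were 2-fold higher with SFA and 7 with SFE, where 1.36% and 1.37% of all genes were. None was 2-fold lower in either comparison, where 1.34% and 1.01% of all genes were. By count ratio 12 and 9 were 2-fold higher and none was lower, and the share of all genes was not computed. Named by their larger absolute difference in log2(FPKM + 1) in either comparison, the first 3 were AKR1C1 (ratios of 7.22 with SFA and 4.82 with SFE), AKR1C3 (5.28 and 12.3) and OSGIN1 (10.5 and 5.06). Each of these 3 overlaps another listed gene, and AKR1C1 and AKR1C3 belong to a family of closely similar aldo-keto reductases, so their values are uncertain. OSGIN1 reached 1 FPKM with SFA and SFE only (0.85 with DMSO), so the filter favoured high ratios for it. The 5 genes whose ratios to DMSO lay nearest to those of NQO1, out of 2733 others at 10 FPKM or more in all 3 libraries, were SLC1A5, NCBP2-AS2, SLC20A1, BLVRB and TIMP3. Likeness was the distance between pairs of log2 ratios, SFA over DMSO and SFE over DMSO, so it rests on 3 libraries that share 1 DMSO value. The distances were 0.048 for SLC1A5, 0.053 for NCBP2-AS2, 0.061 for SLC20A1 and 0.064 for BLVRB and TIMP3. SLC1A5, a glutamine transporter, stood at 102 FPKM with SFA, 99.1 with SFE and 53.5 with DMSO. BLVRB, which reduces biliverdin and flavins, stood at 25.5 FPKM with SFA, 24.4 with SFE and 13.2 with DMSO.

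Total counts were 13639844 with SFA, 13644676 with SFE and 18767232 with DMSO. The labelled cell type was met by part of its markers only. The keratins of simple epithelia KRT18 (292 FPKM with SFA, 294 with SFE and 534 with DMSO), KRT8 (223, 232 and 416) and KRT7 (161, 151 and 118) were abundant, whereas EPCAM, KRT19, CDH1 and CLDN7, other epithelial markers, stayed below 1 FPKM in all 3 libraries. The 10 epithelial markers summed to 683 FPKM with SFA, 683 with SFE and 1075 with DMSO. KRT8 and KRT18 were lower with SFA and SFE than with DMSO, and KRT7 was higher. Of the gastric and intestinal markers, TFF1 and TFF2 were listed at 0 and the highest was MUC1 at 5.43 FPKM. Of 6 fibroblast markers, 3 reached 1 FPKM, and the list summed to 10.3 FPKM with SFA, 12.7 with SFE and 26.6 with DMSO. COL1A2 was near 0 and COL1A1 was the highest at 11.3 FPKM, and the part of these cells or genes in the differences above was not tested. No leukocyte, endothelial, hepatocyte or erythroid marker reached 1 FPKM. In such bulk samples fewer cells of a type and less RNA per cell cannot be told apart.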

How the data were processed

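The authors deposited 1 table with raw counts and FPKM per gene for 3 libraries of rRNA-depleted total RNA. The submitters' processing notes name HISAT2 2.0.4, StringTie 1.2.3 and hg38, with no roles; the sources used here do not give the counting tool, strand setting or annotation release. Deposited FPKM equalled the deposited count divided by the library total and by 1 length per gene, which differed between libraries by at most 0.0831%.

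Where names were shared, the identifier with the highest mean FPKM was kept, and the 11680 genes that reached 1 FPKM in any library entered. Differences are in log2(FPKM + 1), and limits were 2-fold and 1.5-fold. Ratios are counts over library totals with exact conditional binomial 95% intervals, and levels have exact Poisson intervals, both covering counting error only. These functions were tested on simulated data. With 1 library per group no p-value was computed. TMM factors came from edgeR 4.0.16. Coordinates are hg38, as deposited, and 9 of the 10 loci, all but GSTP1, had the same position in GENCODE 29.

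The 10 genes, the lists and the tests were chosen with earlier results of these data known. Named from the other lists were up to 3 genes each with the largest difference from DMSO; a gene that this rule names and a marker are not reported here. The use of merged exon length was chosen after seeing the data.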

Additional observations from a re-analysis of the deposited data

How the results depend on the processing

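Of the 10 genes, 1 was 2-fold higher with SFA than with DMSO, and at a limit of 1.5-fold this was 3 with SFA and 2 with SFE. Without overlapping genes, which leaves 3 of the 10, the count at 2-fold was 0. That was fixed in advance, because EPHX1 overlaps another listed gene and is left out. Leaving out overlapping genes was not tried at 1.5-fold. Pseudocount, scaling, filter and merged exon length gave the same counts as the main setting, with GSTM4 left out by the 5 FPKM filter. Over all genes, a pseudocount of 0.1 FPKM gave 452 higher and 374 lower for SFA against DMSO, 464 and 282 for SFE against DMSO, and 273 and 202 for SFE against SFA. These compare with 159 and 157, 160 and 118, and 79 and 72 at a pseudocount of 1 FPKM. A filter of 5 FPKM gave 98 and 95, 94 and 72, and 40 and 37 in the same order, among 5455 genes. Without overlapping genes, among 3957 genes, they were 55 and 48, 47 and 33, and 19 and 25.

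Under median-ratio scaling, TMM scaling or a total without mitochondrially encoded genes, 81 of 90 ratios of the 10 genes stayed within their counting interval and 9 left it. The ratios moved by −6.54% to 0.138%. Those that left were ratios of NQO1, EPHX1, GSTP1 and MGST1, all under median-ratio or TMM scaling. The total without mitochondrially encoded genes moved none out. MGST3, SFA over DMSO, fell below 1, to 0.98 under median-ratio and 0.96 under TMM scaling, inside its interval. The level of NQO1 over GSTP1 was 0.77 with SFA, 0.80 with SFE and 0.47 with DMSO per merged exon length, against 1.07, 1.11 and 0.66 by deposited FPKM, because the merged length of GSTP1 is the smaller share of its deposited length. No paired analysis was possible because each group has 1 library, and no replicate could be left out for the same reason. Depth limits GSTM4, GSTM3 and MGST2 most, with at most 512 counts in any library.

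Counting intervals under the other scalings and counts by count ratio were added after seeing the data. By count ratio, 4 of the 10 genes were 1.5-fold higher with SFA and 3 with SFE, and 1 and 0 were 2-fold higher. The share of all genes past these limits by count ratio was not computed, so counts by count ratio have no background here. The shares given for log2(FPKM + 1) do not stand in for it.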
